A study of Mus musculus with 48 samples.

Results

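The accessible regions around 5 genes that encode repressors of transcription, Prdm1, Bcl6, Zeb1, Zeb2 and Zfp683, were examined in CD8 T cells taken from mouse tumours. A region (peak) was assigned to a gene when it overlapped that gene's protein-coding gene body, to the gene with the nearest boundary when it overlapped several, and, lying outside all of them, to the closest one if that was at most 100 kb away. The rule used positions and no measured value. It gave 58 of the 53868 peaks in the table: 22 at Prdm1, 10 at Zeb1, 21 at Zeb2, 5 at Bcl6 and 0 at Zfp683. The gene table used here lists Zfp683 as a pseudogene, so the rule passes it over; when its entry was admitted beside the protein-coding genes, 5 peaks fell to it that otherwise went to the neighbours Crybg2 and Lin28a. That extension was chosen after the files had been seen, and its 5 peaks are kept out of every count of the 58.

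ATAC-seq, in which the Tn5 transposase cuts open chromatin and the reads per peak are counted, was run on 48 libraries in 21 groups. The donor cells were naive-like, Cas9-expressing OT-1 CD8 T cells from spleen, whose T cell receptor recognises ovalbumin, marked by CD45.1 and transduced with a lentivirus carrying 1 guide RNA and the fluorescent protein ametrine. They went into young or aged host mice 1 day before inoculation with B16-OVA melanoma and were sorted from the tumours on day 15, 5000 to 50000 cells a library. The guide was against Zfp219 or Dusp5, labelled Zfp219KO and Dusp5KO, or was the control named OTC, and every group carries Cas9, a guide and the reporter. Sorting on Slamf6 and Tim-3 gave Tprog (progenitor exhausted; Slamf6+Tim-3-), Ttran (transitory, effector-like; Slamf6+Tim-3+), Tterm (terminally exhausted; Slamf6-Tim-3+) and, in aged hosts only, Ttad (age-associated dysfunctional; Slamf6-Tim-3-). A library is a pool of cells from independent mice, 15 groups hold 2 libraries and 6 hold 3, and no host age in weeks was used here. Host age was taken from an A (aged) or a Y (young) in each sample title, since no other label of a sample states it. The p-values therefore measure the spread between these pools.

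Prdm1 encodes Blimp-1, which drives lymphocytes toward terminal differentiation and represses genes of the memory and progenitor programmes, Bcl6 among them. BCL6 is the opposing repressor, used by follicular helper T cells and by progenitor-like CD8 T cells. ZEB1 and ZEB2 are related zinc-finger repressors that bind E-boxes: ZEB2 acts with T-bet in terminal effector CD8 T cells, while ZEB1 is linked to memory cells. Zfp683 encodes Hobit, a relative of Blimp-1 that works with it in tissue-resident lymphocytes.

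The annotated start of Prdm1 and, for Bcl6 and Zeb2, which have several, the start inside the most accessible start peak are shown first, because these 3 start peaks differed in how they followed the cell states. Each line holds the 250 bases before the start, 5′ to 3′ on the gene's own strand, from RefSeq on GRCm38.p6, the patch of the mm10 build the peaks use; capitals mark the letters of a searched motif.
Prdm1, chr10:44458749-44458998, minus strand: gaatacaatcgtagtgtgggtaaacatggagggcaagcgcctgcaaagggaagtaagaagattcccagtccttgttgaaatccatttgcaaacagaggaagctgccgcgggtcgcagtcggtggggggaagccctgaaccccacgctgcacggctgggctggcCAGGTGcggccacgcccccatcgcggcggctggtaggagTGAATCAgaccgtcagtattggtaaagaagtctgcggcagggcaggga
Bcl6, chr16:23988853-23989102, minus strand: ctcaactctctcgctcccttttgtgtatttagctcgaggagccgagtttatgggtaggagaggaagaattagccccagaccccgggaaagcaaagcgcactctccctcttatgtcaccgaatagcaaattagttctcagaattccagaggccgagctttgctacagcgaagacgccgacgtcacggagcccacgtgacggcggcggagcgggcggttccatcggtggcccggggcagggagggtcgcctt
Zeb2, chr2:45110278-45110527, minus strand: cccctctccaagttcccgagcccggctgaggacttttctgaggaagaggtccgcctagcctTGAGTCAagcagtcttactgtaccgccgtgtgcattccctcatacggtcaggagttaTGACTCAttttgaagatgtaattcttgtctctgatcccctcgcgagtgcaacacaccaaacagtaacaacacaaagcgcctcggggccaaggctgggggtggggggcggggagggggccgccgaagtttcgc
Both strands were searched for TGANTCA (AP-1), CACCTG (the ZEB E-box), CTTTGA (TCF), TGTGGT (RUNX), GTGAAAG (PRDM1) and GGTGTGA (T-box); no motif overlapped another in these windows. The Zeb2 window shown holds AP-1 letters at positions -189 and -132 from the start, as TGAGTCA and TGACTCA. The windows of the other annotated Zeb2 starts, at 45117442, 45113279 and 45113253, hold none of the searched letters. The Prdm1 window holds AP-1 letters, TGAATCA, at -48 and the ZEB E-box as its complement CAGGTG at -87. None of the searched letters are in the Bcl6 window shown; the window of the other annotated Bcl6 start, at 23981283, holds the TCF letters CTTTGA at -44. Of all 32851 annotated start windows of this length, 6.75% held the AP-1 letters, 17.2% the ZEB E-box and 13.8% the TCF letters. A match describes the letters only and was not tied to binding.

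The libraries held 5638413 to 16159054 reads in peaks in aged hosts and 6589023 to 29942755 in young hosts. The deposited values are reads divided by 1 factor per library, called normalized reads here. The weakest 25% of all peaks had a mean under 34.5, and 46 of the 58 member peaks lay above that; 55 had a read in every library. CD8 T cell markers (6 of 6 genes with peaks) summed to 11954 to 15611 normalized reads in every library. Marker loci of other cells had signal in every library, and their part in the results was not tested. Melanoma loci summed to 913 to 1633 normalized reads (4 of 7 genes, Mlana, Pmel, Mitf and Sox10; Tyr, Dct and Tyrp1 had no peak). Myeloid loci summed to 1539 to 2395 (3 of 6, Itgam, Cd14 and Spi1; Csf1r, Lyz2 and Adgre1 had no peak). NK loci summed to 2156 to 2928, CD4 T cell loci to 1027 to 1760 with no peak at Foxp3, dendritic cell loci to 213 to 365, and stroma and vessel loci to 3248 to 4435. Accessibility does not check a guide: the Zfp219 locus summed to 536 to 837 (median 687, n = 16) normalized reads in libraries with its guide and 556 to 748 (median 643, n = 16) in OTC libraries, and the Dusp5 locus to 5428 to 7858 (median 6795, n = 16) and 5802 to 9179 (median 7281, n = 16). In bulk libraries, fewer cells with an open site and less opening per cell cannot be told apart.

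Summed over its 22 peaks, the Prdm1 locus was lowest in Tprog and rose through Ttad to Ttran and Tterm. In aged OTC libraries the sum was 4102 and 3831 in Tprog, 5439 and 5125 in Ttad, 6294 and 6246 in Ttran and 6787 and 6619 in Tterm. The 4 states did not overlap. Young OTC libraries gave 4755 and 4699 in Tprog, 6475, 6710.5 and 6489 in Ttran and 6511, 6647 and 6575 in Tterm, where Ttran and Tterm overlapped. Over all 48 libraries Tprog ran from 3703 to 4769.7 (median 4329, n = 12), Ttad from 4749.9 to 5439 (median 5179, n = 6), Ttran from 6002 to 6710.5 (median 6409, n = 15) and Tterm from 6095 to 6847 (median 6560.2, n = 15). No Tprog library reached the lowest library of Ttran or Tterm. The 21 group means, ordered, ran from 3747 to 6703, a 1.79-fold span, and 5 of the 20 steps between neighbouring groups were without overlap of libraries.

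The other loci moved less. Zeb2 group means spanned 1.42-fold, Bcl6 1.45-fold and Zeb1 1.59-fold, with 2, 3 and 2 of 20 neighbouring steps apart, so most neighbours in those orders did not differ beyond their spread. Zeb2 was ordered like Prdm1: aged OTC Tprog gave 3592 and 3491, Ttad 3738 and 3948, Ttran 4251 and 4229 and Tterm 4603 and 4429. Bcl6 ran the other way in aged OTC libraries, with 1684 and 1599 in Tprog, 1566 and 1769 in Ttad, 1447 and 1328 in Ttran and 1328 and 1337 in Tterm; Tprog and Ttad overlapped. Zeb1 had 1843 and 1804 in Tprog, 1933 and 1770.4 in Ttad, 1682 and 1597 in Ttran and 1568 and 1574 in Tterm.

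Tprog against Tterm, the log2 difference of the summed Prdm1 locus was -0.76 ± 0.04 (limma, BH-adjusted p = 1.1e-37) in aged and -0.48 ± 0.03 (limma, BH-adjusted p = 1.0e-24) in young OTC libraries. For Zeb2 it was -0.35 ± 0.05 (limma, BH-adjusted p = 5.3e-10) and -0.31 ± 0.04 (limma, BH-adjusted p = 1.8e-09). Bcl6 was higher in aged Tprog, by 0.30 ± 0.07 (limma, BH-adjusted p = 2.8e-04), and in young libraries the difference of 0.09 ± 0.06 (limma, BH-adjusted p = 0.27) did not pass. Zeb1 was higher in Tprog at both ages, by 0.21 ± 0.07 (limma, BH-adjusted p = 0.013) and 0.21 ± 0.06 (limma, BH-adjusted p = 0.0053). Of 15014 genes with a peak, 25% passed in aged and 34.6% in young libraries, in either direction. The Zeb1 call was lost in aged libraries without Tprog replicate 1 or either Tterm library and in young libraries without Tprog replicate 2; with peaks inside the gene body alone, the aged Bcl6 difference was 0.16 (limma, BH-adjusted p = 0.12).

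**Figure D1:**
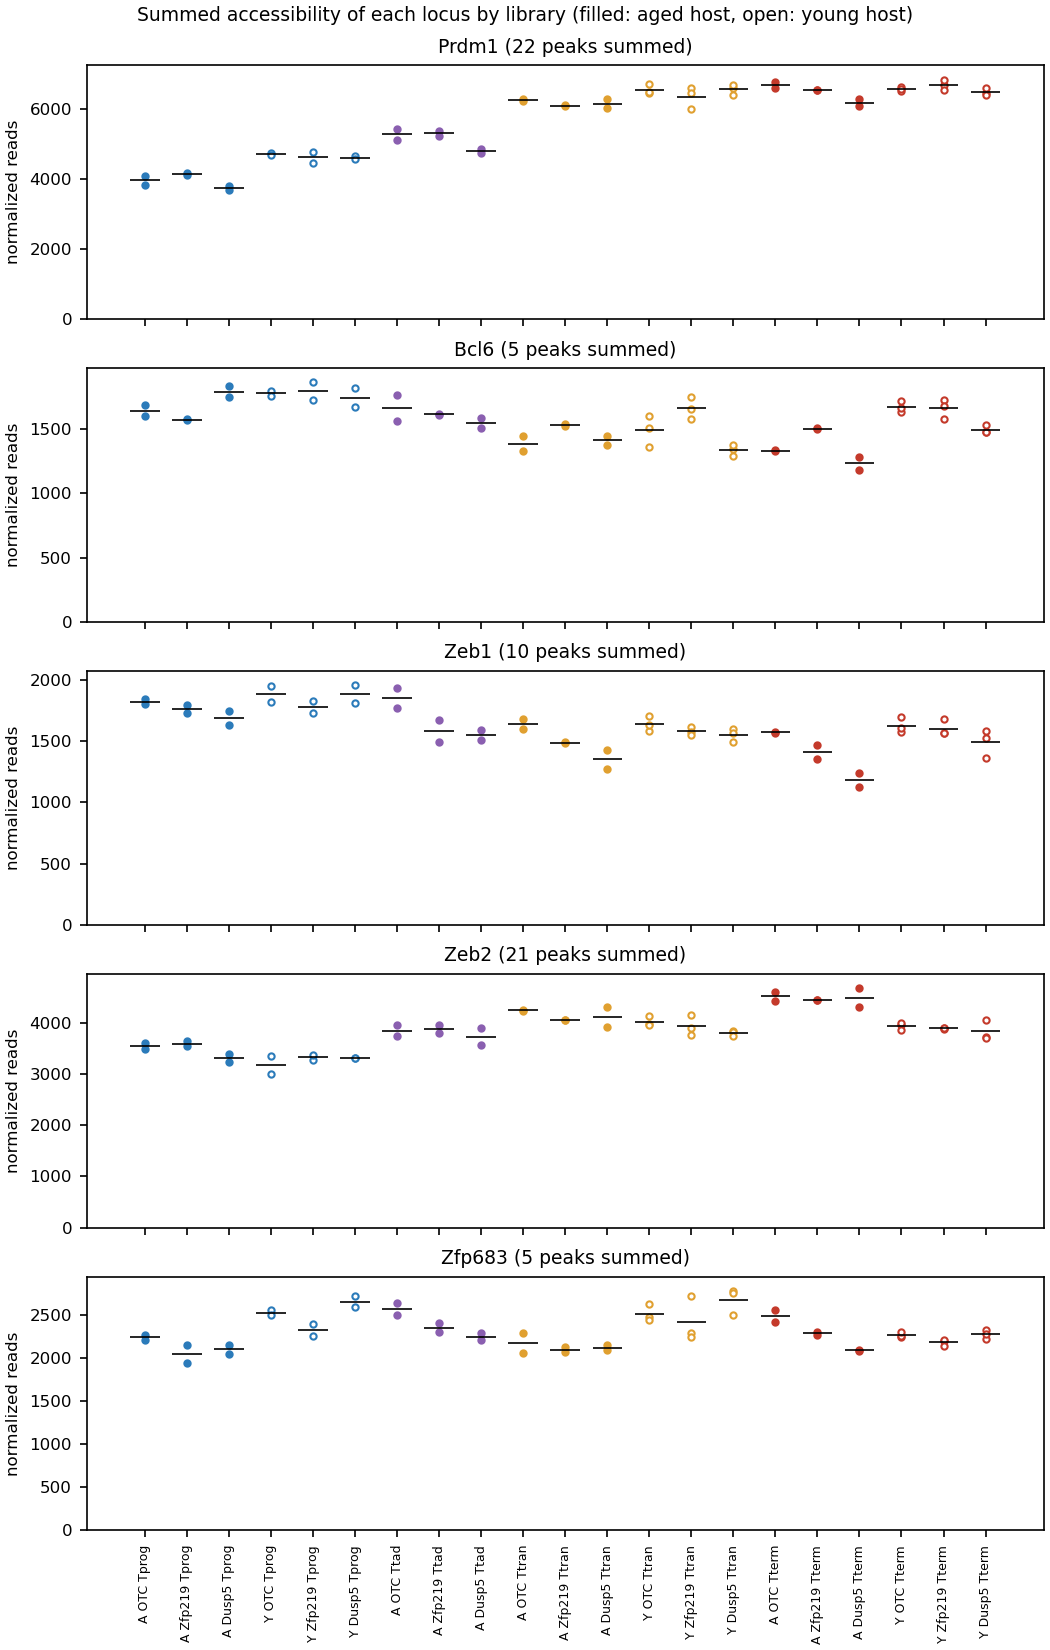
Summed normalized reads over all peaks assigned to each gene (vertical axis, from 0) in each of the 48 libraries, by group (horizontal axis; A, aged host; Y, young host), with filled points for aged and open points for young hosts and a line at the group mean. Every Prdm1 point of Tprog lies below every Ttran and Tterm point, while the Zfp683 groups span 1.31-fold.

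At Prdm1 most of the peaks called between the states in OTC libraries lay at the start or downstream of it. The 12 peaks numbered p1 to p12 in order of coordinate hold the annotated start or lie downstream of it, and 12 of 12 were lower in Tprog than in Tterm in aged OTC libraries, 11 of 12 in young. Among all 53868 peaks 11.2% were lower in aged and 12.6% in young Tprog. Of the 10 Prdm1 peaks upstream of that start, out to 157 kb, 1 was lower in aged and 0 in young libraries. That peak, p21, lost its call whichever of the 4 libraries was left out. The gene body used here reaches upstream past this start, so p13 and p14 lie inside it and p15 lies 378 bases outside it. The median log2 difference was -1.02 in aged and -0.66 in young libraries for the 12, and -0.28 and -0.11 for the 10. Of the 12, p1 to p8 lie past the gene's far end, 2136 to 35691 bases outside it, and belong to Prdm1 by nearness alone.

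The gene-body peak Prdm1 p11, chr10:44449764-44451102, 8.31 kb downstream of the start, had the largest difference of the Prdm1 peaks in aged OTC libraries; it is named after its values were seen. Its aged OTC values were 200.4 and 157 in Tprog, 355 and 362 in Ttad, 462 and 397 in Ttran and 600.3 and 543 in Tterm. Young OTC libraries had 249 and 257 in Tprog, 414, 509.7 and 401 in Ttran and 572, 572 and 559 in Tterm. Tprog lay under all other states at both ages, and in aged libraries the 4 states were separate. The log2 difference between Tprog and Tterm was -1.68 ± 0.14 (SE; limma, BH-adjusted p = 2.5e-18) in aged and -1.17 ± 0.12 (SE; limma, BH-adjusted p = 5.3e-13) in young libraries. Over all 48 libraries p11 ran from 157 to 257 (median 199.8, n = 12) in Tprog and from 467 to 600.3 (median 549, n = 15) in Tterm.

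Prdm1 p12, chr10:44457961-44459590, holds the start whose upstream sequence is printed above. It had 519 and 427 in Tprog, 661 and 574 in Ttad, 721 and 689 in Ttran and 783 and 696 in Tterm in aged OTC libraries. Young OTC libraries had 505 and 634 in Tprog, 773, 775 and 764 in Ttran and 843, 835 and 854 in Tterm. Both Tprog libraries lay under all Tterm libraries at each age, with differences of -0.65 ± 0.11 (SE; limma, BH-adjusted p = 2.6e-06) and -0.58 ± 0.10 (SE; limma, BH-adjusted p = 3.7e-06). The strongest Prdm1 peak, p1, chr10:44400135-44401483, 57.9 kb downstream of the start and 35691 bases past the gene, had 489 and 465 in Tprog, 852 and 663 in Ttad, 937 and 971 in Ttran and 939 and 949 in Tterm in aged OTC libraries. Its young values were 749 and 682 in Tprog, 974, 977 and 1010.2 in Ttran and 928, 866 and 913 in Tterm. Aged Tprog stood under every other OTC library at p1, and the log2 differences from Tterm were -0.98 ± 0.10 (SE; limma, BH-adjusted p = 2.9e-13) in aged and -0.34 ± 0.09 (SE; limma, BH-adjusted p = 0.0035) in young libraries. The young call was lost without Tprog replicate 2 (-0.27, limma, BH-adjusted p = 0.11). The difference between the ages in this contrast was itself -0.65 ± 0.14 (SE; limma, BH-adjusted p = 0.0017), and it passed in all 9 fits that left out 1 library.

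A further pair of downstream peaks differed as well. Prdm1 p5, chr10:44419519-44420661, had 351 and 286 in Tprog, 381 and 457 in Ttad, 770.2 and 638 in Ttran and 656 and 689 in Tterm in aged OTC libraries, with Ttran and Tterm overlapping above Tprog and Ttad. Prdm1 p9, chr10:44439609-44440082, in the gene body 18.9 kb from the start, had 35.1 and 62.1 in Tprog, 134 and 107 in Ttad, 97.8 and 116 in Ttran and 143 and 105 in Tterm. Without aged Tprog replicate 1 its call was lost (limma, BH-adjusted p = 0.066). The Tprog to Tterm differences were -1.08 ± 0.14 (limma, BH-adjusted p = 4.4e-10) and -1.37 ± 0.31 (limma, BH-adjusted p = 3.1e-04) in aged, and -0.66 ± 0.12 (limma, BH-adjusted p = 1.2e-05) and -1.18 ± 0.28 (limma, BH-adjusted p = 5.7e-04) in young libraries, where the p9 call was lost without Tprog replicate 2.

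**Figure D2:**
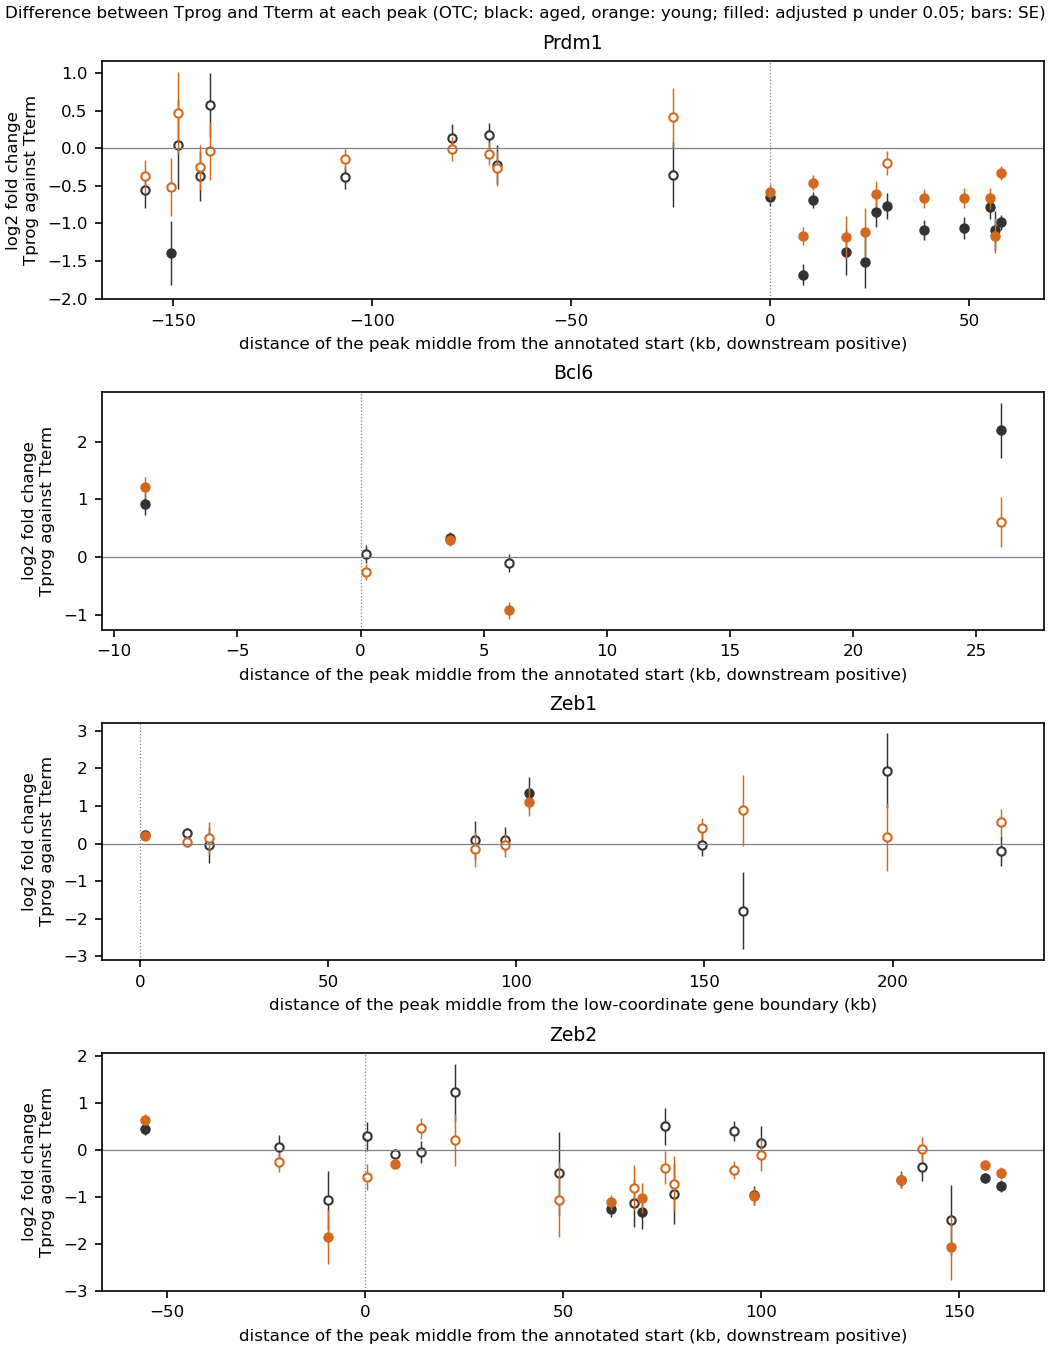
Log2 fold change of Tprog against Tterm in OTC libraries (vertical axis; bars, SE) at every peak against the distance of its middle from the annotated start in kb (horizontal axis; from the gene's low-coordinate boundary for Zeb1), with aged hosts in black, young hosts in orange and filled points for an adjusted p under 0.05. At Prdm1 the 12 peaks at or downstream of the start lie below 0 at both ages, and the 10 upstream peaks have medians of -0.28 in aged and -0.11 in young hosts.

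Zeb2 was lower in Tprog at 6 peaks in aged and 9 in young OTC libraries of 21, and higher at 1 peak at each age. Over all peaks 11.2% were lower and 8.88% higher in aged Tprog, and 12.6% lower and 13.9% higher in young Tprog. Peak Zeb2 p13 (chr2:45054247-45056450, in the gene body 62.1 kb from the furthest upstream start), chosen after its values were seen, had 138 and 134 in Tprog, 208 and 251 in Ttad, 409 and 357 in Ttran and 278 and 384 in Tterm in aged OTC libraries. The young OTC values were 148 and 159 in Tprog, 345, 391 and 392 in Ttran and 349.5, 348 and 308 in Tterm. Tprog lay under every Ttran and Tterm library, with differences from Tterm of -1.26 ± 0.18 (SE; limma, BH-adjusted p = 3.7e-08) in aged and -1.12 ± 0.17 (SE; limma, BH-adjusted p = 5.1e-08) in young libraries. Peak Zeb2 p7 at chr2:45018653-45020062, also chosen afterwards, showed -0.97 ± 0.20 and -0.99 ± 0.18 (limma, BH-adjusted p = 6.1e-05 and 5.6e-06).

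In the opposite direction, Zeb2 p21 (chr2:45172382-45173487, 55.5 kb upstream of the gene; also chosen after its values were seen) was highest in Tprog. Aged OTC values were 681 and 667 in Tprog, 516 and 575 in Ttad, 543 and 593 in Ttran and 518 and 477 in Tterm. Young ones were 489 and 599.8 in Tprog, 445, 442 and 409 in Ttran and 379.9, 346 and 316 in Tterm. The Tprog libraries lay above all Tterm libraries at both ages. The difference from Tterm was 0.44 ± 0.12 (SE; limma, BH-adjusted p = 0.0052) in aged libraries, lost without Tterm replicate 2, and 0.64 ± 0.11 (SE; limma, BH-adjusted p = 2.7e-06) in young ones.

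Between Tprog and Tterm in OTC libraries, the peaks over the Zeb2 starts passed at most at 1 age. Peak p17, chr2:45108535-45111253, which holds the start printed above, had 456 and 536 in Tprog, 529.9 and 579 in Ttad, 389.6 and 391 in Ttran and 600.3 and 459 in Tterm in aged OTC libraries. Its values in young hosts were 481 and 534 in Tprog, 501, 467 and 505 in Ttran and 673, 581 and 611 in Tterm. Tprog and Tterm overlapped in aged libraries (-0.09 ± 0.12, limma, BH-adjusted p = 0.67); in young ones the difference was -0.29 ± 0.11 (SE; limma, BH-adjusted p = 0.029), lost without Tprog replicate 1 or Tterm replicate 1. The furthest upstream start lies in p18, chr2:45116397-45117507, with a mean of 89.2 normalized reads; its differences were 0.29 ± 0.30 and -0.59 ± 0.27, and neither passed. The weak peak p19, chr2:45126498-45126906, with a mean of 22.6, had the largest young change among called Zeb2 peaks with a mean of at least 20, -1.86 ± 0.57 (SE; limma, BH-adjusted p = 0.0097); its values there were 10.7 and 3.42 in Tprog, 26.5, 32.8 and 29.6 in Ttran and 18.3, 28.3 and 30.4 in Tterm. Its call rested on Tprog replicate 2, without which it was -1.15 (limma, BH-adjusted p = 0.29).

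Bcl6 has 5 peaks, and 3 were higher in Tprog in aged OTC libraries, 2 in young, beside 8.88% and 13.9% of all peaks. In young libraries 1 peak, p2, was lower in Tprog, beside 12.6% of all peaks. Bcl6 p5, chr16:23997038-23998182, 8.76 kb upstream of the start, carried the clearest difference. It had 277 and 256 in Tprog, 255 and 289.5 in Ttad, 152 and 156 in Ttran and 146 and 135 in Tterm in aged OTC libraries. In young OTC libraries it had 315 and 257 in Tprog, 126, 143 and 137 in Ttran and 137, 108 and 125 in Tterm. Tprog and Ttad stood together above Ttran and Tterm without overlap. The difference between Tprog and Tterm was 0.92 ± 0.19 (SE; limma, BH-adjusted p = 1.4e-04) in aged and 1.21 ± 0.18 (SE; limma, BH-adjusted p = 3.9e-08) in young libraries, and both passed without any 1 library. The strongest Bcl6 peak, p3, chr16:23984180-23986288, in the gene body, had 773 and 716 in Tprog, 699 and 795 in Ttad, 647 and 641 in Ttran and 553 and 631 in Tterm in aged OTC libraries. Young OTC libraries had 919.8 and 919.8 in Tprog, 614, 713 and 752 in Ttran and 730.0, 745 and 783 in Tterm. Its differences of 0.33 ± 0.10 (limma, BH-adjusted p = 0.0097) and 0.29 ± 0.09 (limma, BH-adjusted p = 0.011) were lost without aged Tprog replicate 1 or Tterm replicate 1, and without either young Tprog library.

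The Bcl6 start peak p4, chr16:23988027-23989193, had 324 and 307 in Tprog, 292 and 352 in Ttad, 305 and 249 in Ttran and 311 and 299.7 in Tterm in aged OTC libraries, where Tprog and Tterm overlapped, and the Tprog to Tterm difference passed at neither age (0.05 ± 0.15 and -0.26 ± 0.14, limma, BH-adjusted p = 0.88 and 0.18). Peak p2, chr16:23982245-23983394, 6.03 kb inside the gene and chosen after its values were seen, was lower in young Tprog: 183 and 181 in Tprog, 281, 324 and 297 in Ttran and 325, 339 and 378 in Tterm. In aged hosts it had 260.4 and 271 in Tprog, 293 and 293 in Ttad, 302 and 261 in Ttran and 306 and 263 in Tterm, and Tprog overlapped Ttran and Tterm. The young difference was -0.93 ± 0.14 (SE; limma, BH-adjusted p = 1.7e-07), the aged one -0.10 ± 0.16 (limma, BH-adjusted p = 0.74), and the difference between the ages 0.83 ± 0.21 (limma, BH-adjusted p = 0.015), which passed in 3 of the 9 fits that left out 1 library. The weak peak p1, chr16:23962476-23963205, past the gene's far end, was higher in Tprog in aged OTC libraries (limma, BH-adjusted p = 2.3e-04), where Tprog had 48.7 and 49.7 normalized reads and both Tterm libraries lay below the 2 Ttran libraries, at 40.6 and 20.7.

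Zeb1 showed small differences at its strongest peaks. Peak p1, chr18:5591130-5594226, over the gene's low-coordinate boundary, had the highest mean of the 58 peaks, 871 normalized reads, with 939 and 990.1 in Tprog, 996 and 944 in Ttad, 824 and 767 in Ttran and 778 and 887 in Tterm in aged OTC and 1015 and 1046 in Tprog, 773, 837 and 931 in Ttran and 913, 864 and 890.3 in Tterm in young OTC libraries. Tprog lay above Tterm without overlap at both ages: 0.21 ± 0.09 (limma, BH-adjusted p = 0.089) did not pass in aged libraries, and 0.21 ± 0.08 (limma, BH-adjusted p = 0.049) in young ones was lost when any 1 of the 5 libraries was left out. The larger difference was at the weaker intragenic peak p6, chr18:5694211-5695048. It had 103 and 69.2 in Tprog, 46.9 and 78.8 in Ttad, 40.6 and 41.4 in Ttran and 37.0 and 28.4 in Tterm in aged OTC libraries. The young OTC values were 74.5 and 104 in Tprog, 53.9, 38.3 and 51.7 in Ttran and 41.7, 41.7 and 37.1 in Tterm. The Tprog libraries were above all Tterm libraries, by 1.35 ± 0.43 (SE; limma, BH-adjusted p = 0.015) and 1.11 ± 0.39 (SE; limma, BH-adjusted p = 0.026). These calls were lost without aged Tprog replicate 1 or Tterm replicate 2, and without young Tprog replicate 2 or Tterm replicate 3. In all, 1 of 10 Zeb1 peaks was called in aged and 2 in young OTC libraries, all higher in Tprog, beside 8.88% and 13.9% of all peaks called higher.

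**Figure D3:**
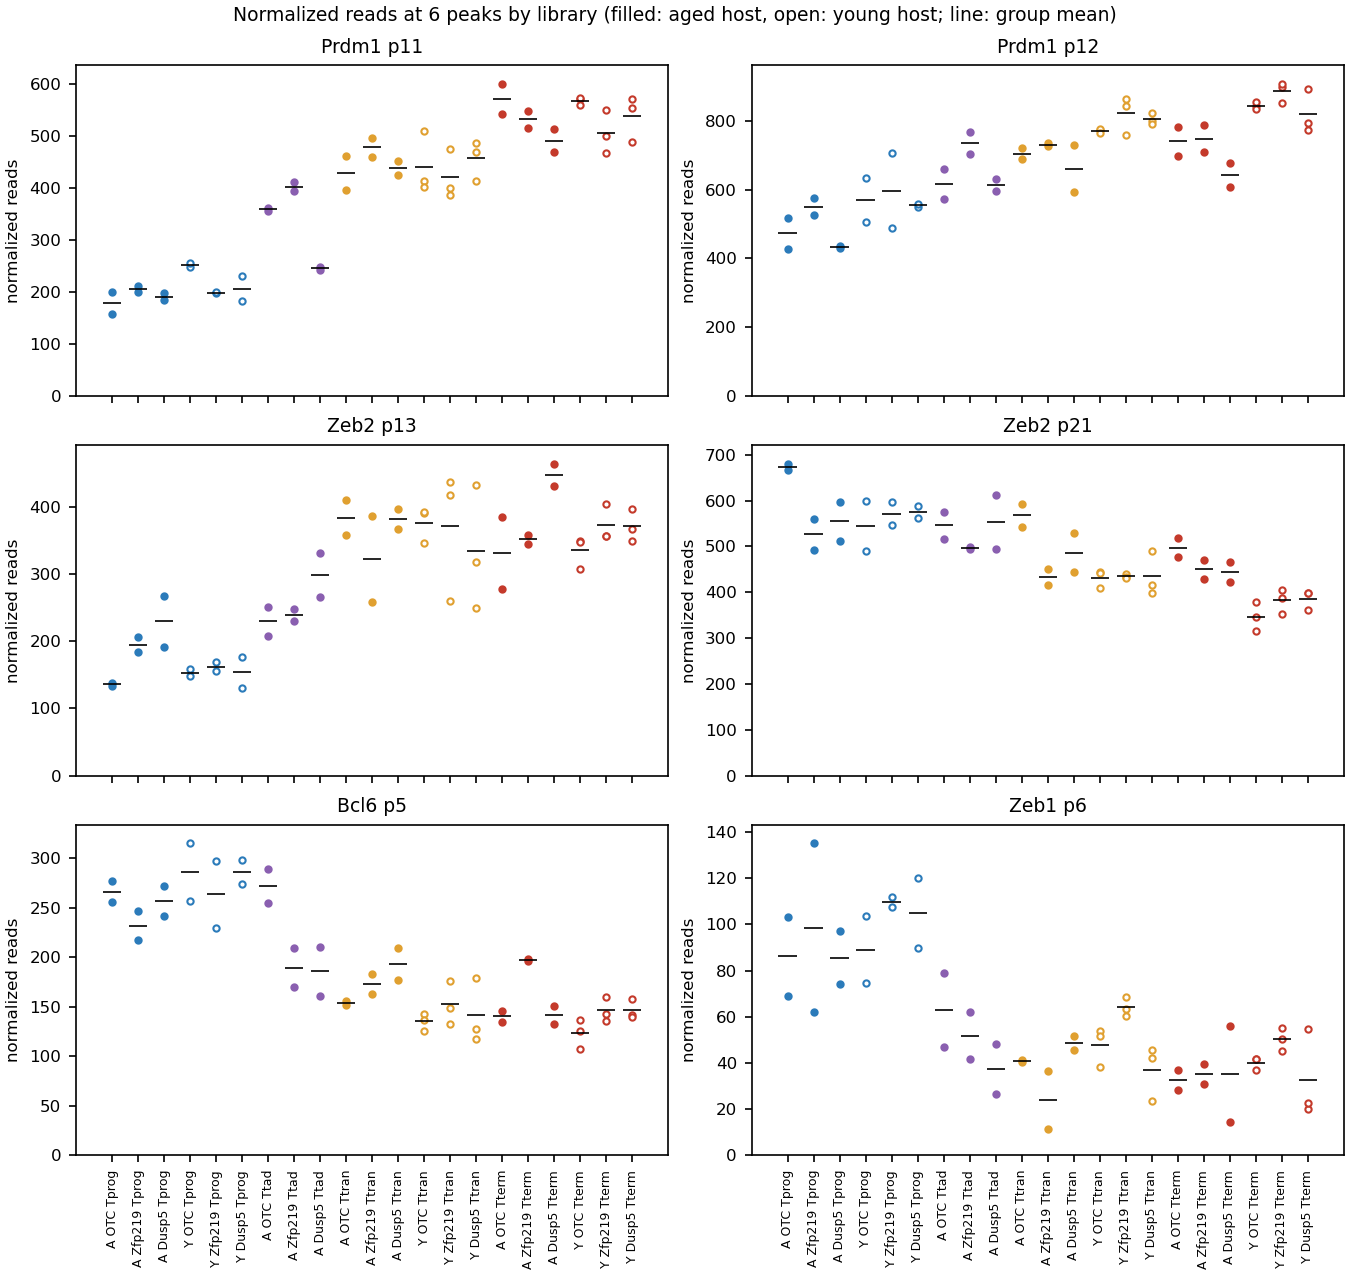
Normalized reads (vertical axis, from 0) at 6 peaks in each library, by group (horizontal axis; A, aged; Y, young), filled for aged and open for young hosts, with a line at the group mean. In OTC libraries Prdm1 p11 and Zeb2 p13 are lowest in Tprog, and Zeb2 p21, Bcl6 p5 and Zeb1 p6 are higher in Tprog than in Tterm.

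In total 24 of the 58 peaks were called between Tprog and Tterm in aged OTC libraries, against 20.1% of all peaks, and 26 in young ones, against 26.5%. The libraries with the Zfp219 or Dusp5 guide, averaged over both guides and ages, share no library with the OTC groups. There 41 of the 58 passed, against 45.5% of all peaks (22.1% higher and 23.4% lower in Tprog), with 17 of 22 Prdm1 peaks and 10 of 21 Zeb2 peaks lower in Tprog. The 12 Prdm1 peaks at or downstream of the start were all lower, with a median of -0.78, and upstream 5 of 10 were lower and 1 higher. Prdm1 p11 gave -1.36 ± 0.07 (SE; limma, BH-adjusted p = 2.4e-34), Bcl6 p5 0.72 ± 0.09 (limma, BH-adjusted p = 1.4e-10), Zeb1 p1 0.39 ± 0.04 (limma, BH-adjusted p = 7.0e-13), Zeb1 p6 1.45 ± 0.21 (limma, BH-adjusted p = 3.1e-09) and Zeb2 p21 0.42 ± 0.06 (limma, BH-adjusted p = 1.4e-09). Without a test, 17 of the 58 peaks had all Tprog libraries below all Tterm libraries in each of the 6 sets of age and guide (11 at Prdm1 and 6 at Zeb2), against 6.85% of all peaks. At Prdm1 these were p22, the furthest upstream, and all of p1 to p12 but p3 and p6. The peaks with Tprog above in all 6 sets were 6: Bcl6 p1, p3 and p5, Zeb1 p1 and p6, and Zeb2 p21, against 7.55%.

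Ttran, the Slamf6+Tim-3+ state, also had a more accessible Prdm1 locus than Tprog. Against Tprog, Ttran was higher at 11 Prdm1 peaks in aged and at 11 in young OTC libraries, and lower at 0. Over the 58 peaks, 19 passed in aged libraries, against 17% of all peaks (9.99% higher and 6.98% lower), and 25 in young, against 16.9% (9.07% higher and 7.82% lower). At p11 the rise was 1.27 ± 0.14 (limma, BH-adjusted p = 2.3e-12) and 0.79 ± 0.12 (limma, BH-adjusted p = 4.1e-07), and at p5 1.14 ± 0.14 (limma, BH-adjusted p = 1.1e-10) and 0.90 ± 0.12 (limma, BH-adjusted p = 1.5e-08). Zeb2 rose at 5 peaks and fell at 1 in aged libraries, and rose at 9 and fell at 1 in young. Between Ttran and Tterm, 1 of 58 peaks passed in aged libraries, against 3.22%, namely Zeb2 p17, where Ttran differed by -0.43 ± 0.12 (limma, BH-adjusted p = 0.02). That call was lost under quantile normalization, library weights or the compared groups alone, and without Tterm replicate 1 or either Ttran library. In young libraries 5 passed, against 8.38%; they were Prdm1 p11, where Ttran differed by -0.37 ± 0.11 (limma, BH-adjusted p = 0.021), and Zeb2 p1, p17, p18 and p21; leaving out 1 library left 1 to 3 calls.

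Ttad, the Slamf6-Tim-3- cells sorted from aged hosts, stood between Tprog and Tterm at Prdm1 and, in OTC libraries, with Tprog at Bcl6 p5. Against Tprog, 6 Prdm1 peaks were higher, with 10 of the 58 called, against 6.55% of all peaks (3.82% higher and 2.73% lower). Against Tterm, 4 Prdm1 peaks were lower and 3 Bcl6 peaks higher, with 8 of 58 called, against 7.28% (3.02% higher and 4.26% lower). At p11, Ttad was above Tprog by 1.01 ± 0.14 (SE; limma, BH-adjusted p = 8.4e-08) and its difference from Tterm was -0.67 ± 0.14 (SE; limma, BH-adjusted p = 3.4e-04). At p5, Ttad differed from Tterm by -0.69 ± 0.14 (limma, BH-adjusted p = 2.2e-04) and from Ttran by -0.75 ± 0.14 (limma, BH-adjusted p = 7.1e-05). Bcl6 p5 was above Tterm by 0.95 ± 0.19 (limma, BH-adjusted p = 3.8e-04) and differed from Tprog by 0.03 ± 0.19 (limma, BH-adjusted p = 0.96). The start peak Prdm1 p12 was above Tprog by 0.39 ± 0.11 (limma, BH-adjusted p = 0.019), a call lost without Tprog replicate 2 or Ttad replicate 1. The Bcl6 p1 call against Tterm was lost without Ttad replicate 2 or either Tterm library, and the p3 call without Ttad replicate 2 or Tterm replicate 1. At Bcl6 p5 with the Zfp219 guide, Ttad had 209 and 170, below 218 and 247 in Tprog and overlapping 196 and 199 in Tterm. With the Dusp5 guide it had 161 and 211, below 272 and 242 in Tprog and above 151 and 133 in Tterm. Ttad overlapped Ttran there with each guide.

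Summed over the locus, Prdm1 in Ttad differed from Tprog by 0.41 ± 0.04 (limma, BH-adjusted p = 8.4e-17), from Ttran by -0.25 ± 0.04 (limma, BH-adjusted p = 2.2e-07) and from Tterm by -0.34 ± 0.04 (limma, BH-adjusted p = 5.4e-13), where 11.2%, 12.9% and 12.1% of all loci passed. With the Zfp219 guide the Ttad sums were 5383 and 5232 beside 4113 and 4184 in Tprog and 6560.2 and 6558 in Tterm. With the Dusp5 guide they were 4749.9 and 4855, 3791 and 3703 and 6288 and 6095. Ttad lay between the other states without overlap with each guide. Against Ttran, 8 of the 58 peaks passed, against 7.74% of all peaks (3.02% higher and 4.72% lower): 3 Prdm1 peaks lower, 1 Bcl6 and 1 Zeb1 peak higher, and 1 Zeb2 peak higher and 2 lower. The Zeb2 sum in Ttad differed from that in Tterm by -0.23 ± 0.05 (limma, BH-adjusted p = 1.0e-04).

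At Prdm1, Zeb1 and Zeb2, peaks differed in both directions between aged and young hosts. Myeloid marker loci differed too, at 1539 to 1896 in aged and 1946 to 2395 in young libraries without overlap; their part in the age results was not tested. Between aged and young OTC libraries, averaged over Tprog, Ttran and Tterm, 24 of the 58 peaks passed, against 36.5% of all peaks (17.3% higher and 19.1% lower). The 7 higher in aged hosts were 2 at Prdm1, 2 at Zeb1 and 3 at Zeb2, and 17 were lower (9 at Prdm1, 2 at Bcl6, 1 at Zeb1, 5 at Zeb2). The number in each library's column name that follows S runs from 1 to 24 within each age, so age and any split of the work along it cannot be told apart. Myeloid marker loci (3 of 6 genes with peaks) summed to 1539 to 1896 normalized reads in aged and 1946 to 2395 in young libraries, without overlap, while Csf1r, Lyz2 and Adgre1 had no peak; the part of this in the age differences was not tested.

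The clearest age difference was far past the Zeb2 gene. Zeb2 p1, chr2:44956301-44957669, 25843 bases past the gene and chosen after its values were seen, had 455 and 456 in Tprog, 602 and 643 in Ttad, 711 and 652 in Ttran and 817 and 735 in Tterm in aged OTC libraries. Young OTC libraries had 236 and 265 in Tprog, 419, 525 and 397 in Ttran and 372, 343 and 343 in Tterm. Every aged library lay above the young libraries of its state, and the difference averaged 0.87 ± 0.07 (SE; limma, BH-adjusted p = 7.6e-19). Its neighbour p2, chr2:44960023-44961930, the strongest Zeb2 peak, had 721 and 604 in Tprog, 808 and 914 in Ttad, 901 and 904 in Ttran and 1019 and 978 in Tterm in aged OTC libraries. Its values in young hosts were 552 and 601 in Tprog, 769, 706 and 668 in Ttran and 662, 768 and 732 in Tterm. The difference was 0.34 ± 0.06 (limma, BH-adjusted p = 2.4e-06). Its aged libraries too lay above the young ones of each state.

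Of the 13 gene-body peaks of Zeb2, 4 were lower in aged hosts (p6, p7, p8 and p17) and 0 higher. The call at p17 was lost without aged OTC Tprog replicate 1 or Tterm replicate 2. Zeb2 p8, chr2:45023638-45024859, had 140.4 and 138 in Tprog, 80.5 and 115 in Ttad, 150.4 and 84.5 in Ttran and 107 and 103 in Tterm in aged OTC libraries. In young OTC libraries it had 211 and 134 in Tprog, 207, 202 and 211 in Ttran and 233, 244 and 207 in Tterm. The difference was -0.75 ± 0.11 (SE; limma, BH-adjusted p = 4.2e-08). Tprog overlapped between the ages and the other states did not. Zeb2 p6, chr2:45017201-45017920, had 40.8 and 55.9 in Tprog, 11.7 and 50.5 in Ttad, 46.6 and 22.3 in Ttran and 39.2 and 47.7 in Tterm in aged OTC libraries. Young OTC libraries had 84.5 and 72.7 in Tprog, 57.0, 86.8 and 86.6 in Ttran and 76.5, 73.9 and 109 in Tterm. The aged libraries lay below the young in each state, with a difference of -0.95 ± 0.20 (limma, BH-adjusted p = 7.5e-05). The summed Zeb2 locus was higher in aged hosts, by 0.15 ± 0.03 (limma, BH-adjusted p = 9.1e-07), while over the gene-body peaks alone the difference was -0.18; 43.1% of all loci passed.

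At Prdm1, p5 was higher in aged OTC libraries, by 0.47 ± 0.07 (limma, BH-adjusted p = 1.8e-07), and p19, chr10:44601550-44602677, 143 kb upstream, lower. Its aged OTC values were 46.4 and 62.1 in Tprog, 57.0 and 45.6 in Ttad, 60.2 and 35.1 in Ttran and 64.3 and 76.1 in Tterm. The young ones were 74.5 and 104 in Tprog, 102, 94.6 and 75.0 in Ttran and 111, 136 and 77.6 in Tterm. In each state the aged libraries lay below the young, with a difference of -0.75 ± 0.18 (SE; limma, BH-adjusted p = 4.7e-04). The summed Prdm1 locus differed between the ages by -0.25 ± 0.04 (limma, BH-adjusted p = 3.3e-08) in Tprog, where 23.8% of loci passed, by -0.06 ± 0.03 in Ttran and by 0.03 ± 0.03 in Tterm. The age difference in the Tprog to Tterm contrast of the locus was -0.28 ± 0.05 (limma, BH-adjusted p = 2.1e-05), against 8.77% of loci, and with quantile normalization -0.09 (limma, BH-adjusted p = 0.34). Bcl6 p4, the start peak, differed by -0.31 ± 0.08 (limma, BH-adjusted p = 0.0021), and Zeb1 p7 was higher by 0.75 ± 0.17 (limma, BH-adjusted p = 1.6e-04).

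In the Zfp219 and Dusp5 guide libraries of the same 3 states, where 44.5% of all peaks passed, the age difference was 0.67 ± 0.05 (limma, BH-adjusted p = 1.1e-20) at Zeb2 p1, 0.42 ± 0.04 (limma, BH-adjusted p = 1.2e-14) at p2, -0.40 ± 0.08 (limma, BH-adjusted p = 2.0e-05) at p8 and -0.72 ± 0.13 (limma, BH-adjusted p = 1.7e-06) at Prdm1 p19. At Prdm1 p5 it was 0.15 ± 0.05 (limma, BH-adjusted p = 0.018), at Bcl6 p4 0.05 ± 0.06 (limma, BH-adjusted p = 0.49), at Zeb2 p21 0.07 ± 0.05 (limma, BH-adjusted p = 0.23) and at Zeb1 p7 0.12 ± 0.12 (limma, BH-adjusted p = 0.43). This comparison was added after the data had been seen.

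**Figure D4:**
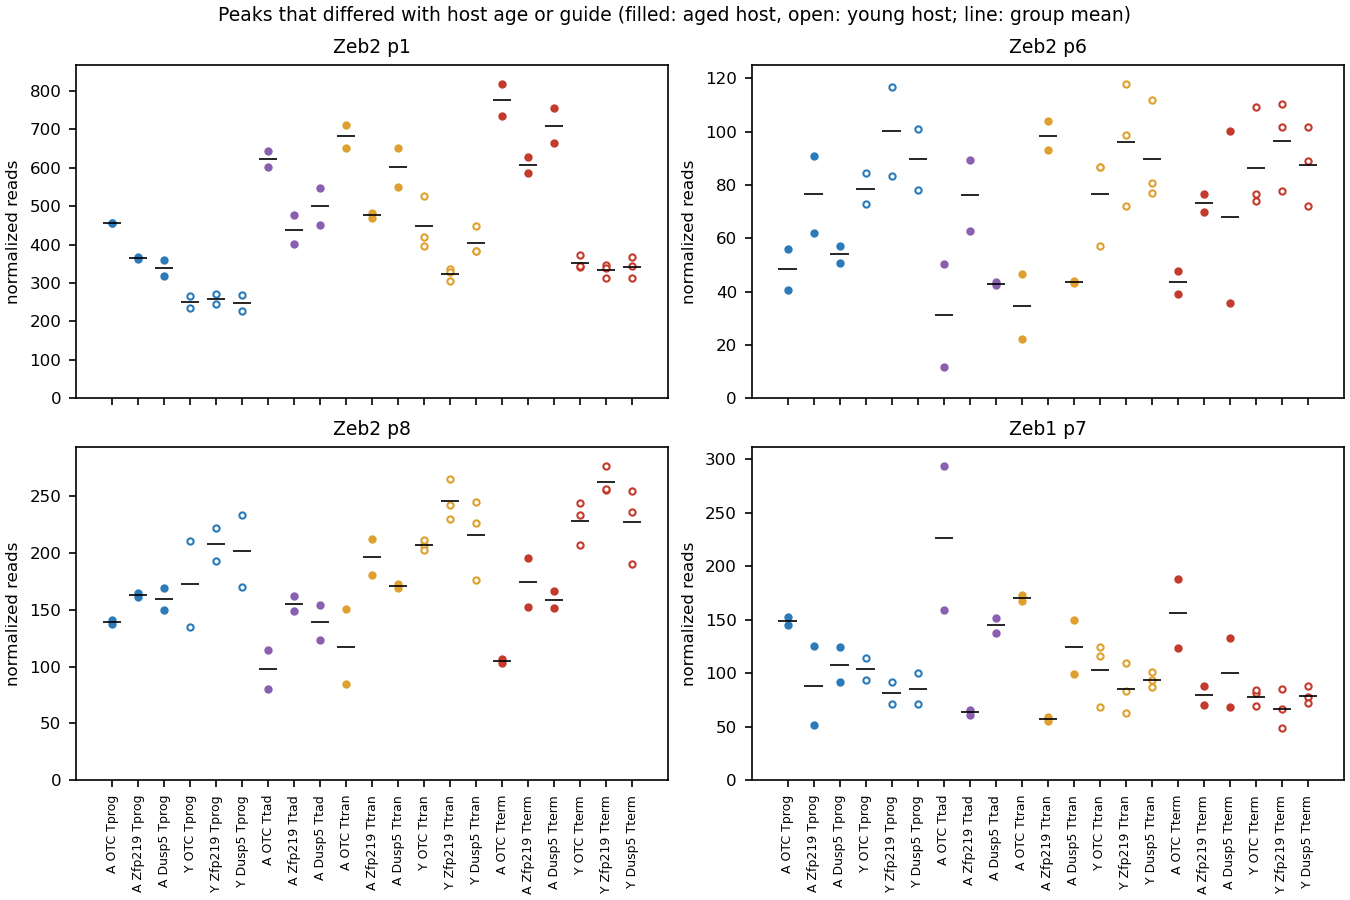
Normalized reads (vertical axis, from 0) at 4 peaks in each library, by group (horizontal axis; A, aged; Y, young), filled for aged and open for young hosts, with a line at the group mean. At Zeb2 p1 the aged groups lie above the young ones of the same state, and at Zeb1 p7 the aged OTC libraries, from 124 to 293, lie above the aged Zfp219 libraries of the same state.

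The 2 guide comparisons in aged hosts and the age comparison all use aged OTC libraries, so their values are given side by side and are not independent. With the Zfp219 guide in aged hosts, averaged over 4 states, 15 of the 58 peaks passed, against 25.8% of all peaks (12.1% higher and 13.7% lower). The largest of these changes was at Zeb1 p7, chr18:5740206-5740962, in the gene body. It had 153 and 146 in Tprog, 293 and 159 in Ttad, 173 and 167 in Ttran and 188 and 124 in Tterm in aged OTC libraries. With the Zfp219 guide it had 125 and 51.8 in Tprog, 66.1 and 61.4 in Ttad, 55.1 and 59.5 in Ttran and 87.9 and 70.8 in Tterm. The guide libraries lay below the OTC libraries of each state, and the difference averaged -1.28 ± 0.15 (SE; limma, BH-adjusted p = 7.4e-11). Young libraries differed by -0.29 ± 0.16 (limma, BH-adjusted p = 0.29), and the difference between the ages was -0.84 ± 0.24 (limma, BH-adjusted p = 0.013), lost without aged Zfp219 Tprog replicate 2.

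At Zeb2, gene-body peaks p6, p7 and p8 were higher with the Zfp219 guide in aged hosts, and p1, p14 and p21 lower. Zeb2 p6 had 91.0 and 61.9 in Tprog, 62.7 and 89.5 in Ttad, 104 and 93.0 in Ttran and 76.7 and 70.0 in Tterm. All lay above the aged OTC libraries, which ran from 11.7 to 55.9 (median 43.7, n = 8), and the difference was 1.13 ± 0.19 (SE; limma, BH-adjusted p = 8.8e-07). Zeb2 p8 had 161 and 164 in Tprog, 162 and 148 in Ttad, 181 and 212 in Ttran and 153 and 195 in Tterm. OTC libraries ran from 80.5 to 150.4 (median 111, n = 8), a difference of 0.60 ± 0.10 (limma, BH-adjusted p = 2.5e-06). Zeb2 p1 had 363 and 369 in Tprog, 400.2 and 476 in Ttad, 469 and 482 in Ttran and 585 and 627 in Tterm. Each lay below the OTC libraries of its state, with a difference of -0.43 ± 0.07 (limma, BH-adjusted p = 1.5e-07). At the same 3 peaks the age difference in OTC libraries, which shares the aged OTC libraries, was -0.95, -0.75 and 0.87. Prdm1 had 4 peaks higher and 3 lower, with p5 changed by -0.41 ± 0.07 (limma, BH-adjusted p = 1.3e-06) and p10, a gene-body peak chosen after its values were seen, by 0.28 ± 0.05 (limma, BH-adjusted p = 2.9e-05). Bcl6 p4 was higher by 0.22 ± 0.08 (limma, BH-adjusted p = 0.024), a call that 4 of 16 left-out libraries ended (aged OTC Ttad replicate 1 and Ttran replicate 2, aged Zfp219 Ttad replicate 2 and Tterm replicate 2).

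With the Dusp5 guide in aged hosts, 12 of the 58 peaks passed, against 12.2% of all peaks (4.35% higher and 7.87% lower), and the Zeb1 locus was lower. Its sum was 1633 and 1743 in Tprog, 1513 and 1588 in Ttad, 1431 and 1270.2 in Ttran and 1128 and 1240.0 in Tterm. Each state lay under the aged OTC libraries of the same state given above. The difference averaged -0.26 ± 0.03 (SE; limma, BH-adjusted p = 3.7e-10), against 20.6% of loci called, and was -0.41 ± 0.07 in Tterm, -0.28 ± 0.07 in Ttran, -0.26 ± 0.07 in Ttad and -0.11 ± 0.07 in Tprog. In young hosts it was -0.07 ± 0.04 (limma, BH-adjusted p = 0.25), against 9.23% of loci, and the difference between the ages was -0.20 ± 0.05 (limma, BH-adjusted p = 0.0067), against 8.4%.

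With the Dusp5 guide in aged hosts 4 Zeb1 peaks were lower and 0 higher. Zeb1 p1 had 972 and 977 in Tprog, 822 and 851 in Ttad, 705 and 621 in Ttran and 556 and 606 in Tterm; Tprog overlapped the OTC libraries and the other 3 states lay below them. Its difference was -0.24 ± 0.05 (SE; limma, BH-adjusted p = 4.5e-05). Zeb1 p4, chr18:5680030-5680772, changed by -0.82 ± 0.25 (limma, BH-adjusted p = 0.021), a call that 5 of 16 left-out libraries ended (aged Dusp5 Ttad replicate 1 and Ttran replicate 2, aged OTC Tprog replicate 1, Ttad replicate 1 and Ttran replicate 1). Zeb1 p7 changed by -0.55 ± 0.15 (limma, BH-adjusted p = 0.0089), a call ended without aged Dusp5 Tterm replicate 1 or aged OTC Ttad replicate 1. Elsewhere, Zeb2 p8 rose by 0.48 ± 0.10 (limma, BH-adjusted p = 5.5e-04) and Zeb2 p13 by 0.39 ± 0.09 (limma, BH-adjusted p = 0.0014), while Zeb2 p1 changed by -0.27 ± 0.07 (limma, BH-adjusted p = 0.0022) and Prdm1 p5 by -0.31 ± 0.07 (limma, BH-adjusted p = 4.9e-04). The weak gene-body peak Prdm1 p13, 24.5 kb upstream of the start, chr10:44482981-44483562, with a mean of 45.7, was higher with both guides, by 0.56 ± 0.21 (limma, BH-adjusted p = 0.042) for Zfp219 and 0.65 ± 0.21 (limma, BH-adjusted p = 0.032) for Dusp5, and passed in 6 and 8 of the 16 fits that left out 1 library.

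Within Ttad, the guides could be set beside OTC at single peaks, all chosen after their values were seen and sharing the aged OTC Ttad libraries. At Prdm1 p11, Ttad had 394 and 412 normalized reads with the Zfp219 guide, 242 and 249 with the Dusp5 guide and 355 and 362 with OTC. The Dusp5 libraries lay below the others, by a difference from OTC of -0.55 ± 0.14 (limma, BH-adjusted p = 0.012), against 2.88% of all peaks. At Prdm1 p4, chr10:44409537-44410736, 48.6 kb downstream of the start, Ttad had 316 and 282 with Zfp219, 268 and 229 with Dusp5 and 406 and 431 with OTC, so both guides lay below OTC. The differences were -0.75 ± 0.15 (limma, BH-adjusted p = 8.6e-04) for Dusp5 and -0.48 ± 0.15 (limma, BH-adjusted p = 0.023) for Zfp219, where 8.23% of all peaks passed.

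In young hosts few member peaks passed with either guide. The Zfp219 guide gave 4 of 58, against 7.07% of all peaks (1.92% higher and 5.15% lower): Bcl6 p1 higher by 0.82 ± 0.24 (limma, BH-adjusted p = 0.024), and Prdm1 p1, Prdm1 p5 and Zeb2 p5 lower, with log2 differences of -0.18, -0.22 and -0.30. The Dusp5 guide gave 2, against 3.82% (1.8% higher and 2.02% lower): Bcl6 p3, changed by -0.17 ± 0.05 (limma, BH-adjusted p = 0.034), and the start peak Bcl6 p4, by -0.25 ± 0.08 (limma, BH-adjusted p = 0.045). Of these 6 calls, none passed in all 16 fits that left out 1 library; the number ran from 4 for Zeb2 p5 to 13 for Prdm1 p1. Tested directly, the Tprog to Tterm contrast in OTC libraries differed between the ages at 2 of the 58 peaks, against 2.32% of all peaks, the Zfp219 effect at 4, against 9.11%, and the Dusp5 effect at 3, against 4%. In the guide libraries the Tprog to Tterm contrast differed between the ages at 7.91% of all peaks, with -0.31 ± 0.10 (limma, BH-adjusted p = 0.031) at Prdm1 p1 and 0.51 ± 0.15 (limma, BH-adjusted p = 0.02) at Bcl6 p2.

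**Figure D5:**
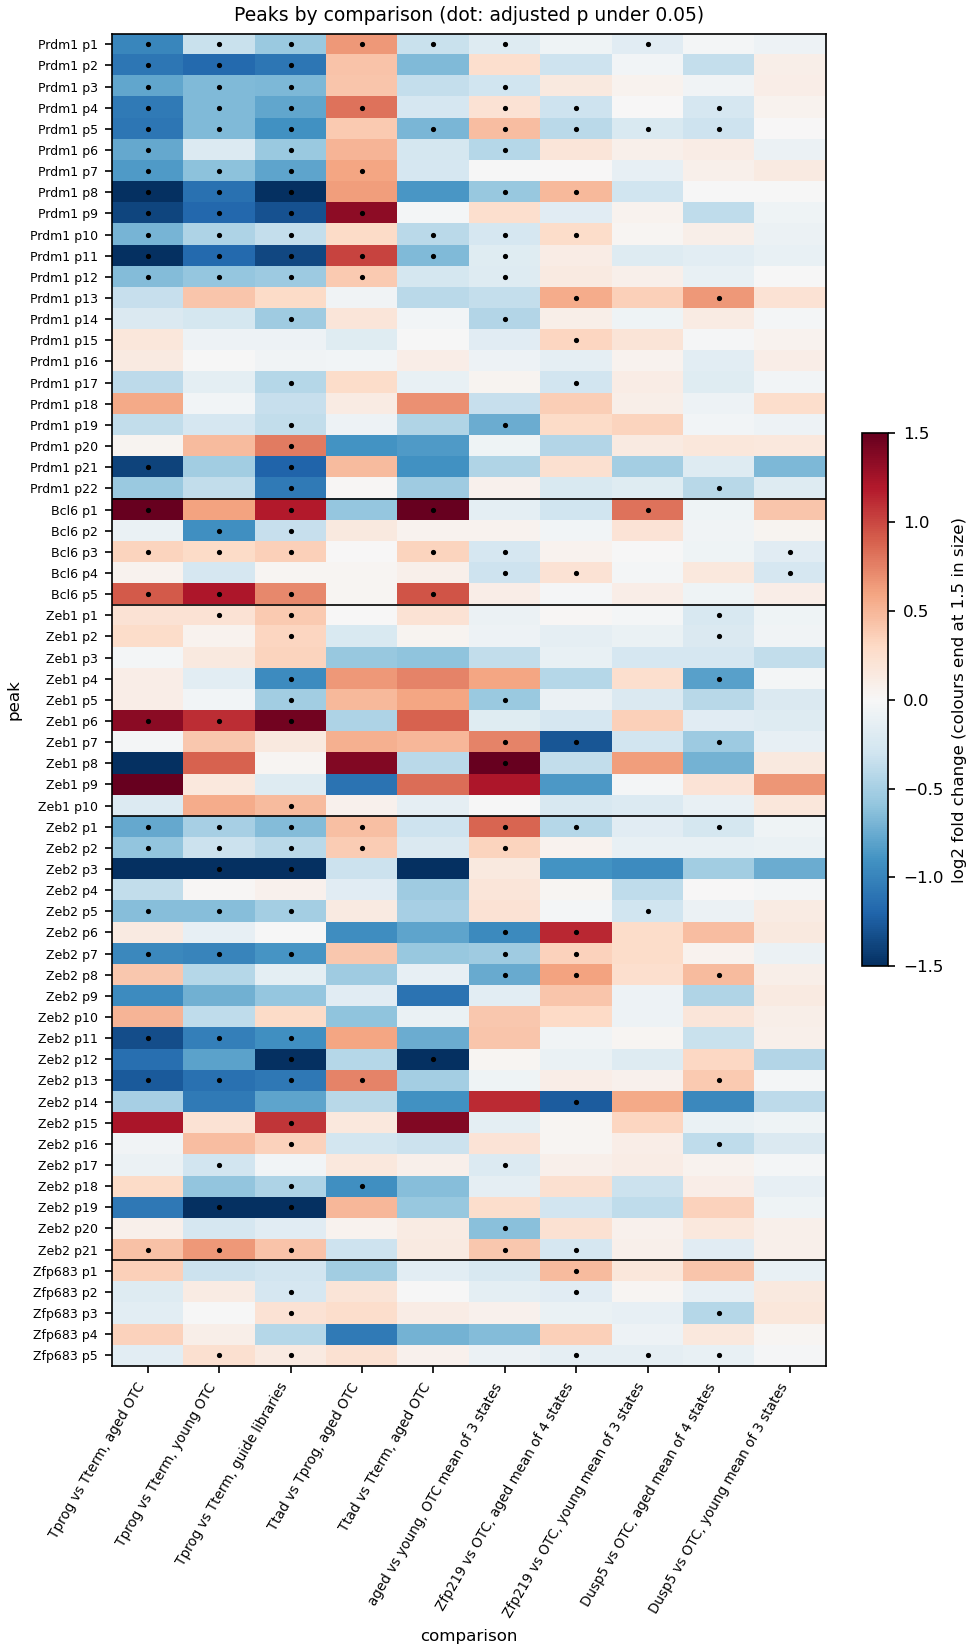
Log2 fold change (colour, ending at 1.5 in size) of each member peak (rows, in order of coordinate within a gene, with the 5 Zfp683 peaks last) in 10 comparisons (columns), with a dot for an adjusted p under 0.05. The first 12 Prdm1 rows are below 0 in all 3 Tprog to Tterm columns, with a dot in all but 1 cell, and the age and guide columns hold dots of both directions at Zeb2.

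The Zfp683 locus, outside the 58, spanned 1.31-fold over the groups. Zfp683 p5, chr4:134058235-134060254, over the high-coordinate end of the entry, had the highest mean of all peaks described here, 1276 normalized reads, or 632 per kb of peak. It had 1233 and 1276 in Tprog, 1511 and 1422 in Ttad, 1169 and 1191 in Ttran and 1439 and 1356 in Tterm in aged OTC libraries. The young OTC values were 1426 and 1452 in Tprog, 1395, 1410.3 and 1404 in Ttran and 1239, 1199 and 1218 in Tterm. Young Tprog lay above young Tterm, by 0.24 ± 0.07 (limma, BH-adjusted p = 0.0045), a call lost without Tprog replicate 2, and aged libraries differed by -0.16 ± 0.07 (limma, BH-adjusted p = 0.14). With the Dusp5 guide in aged hosts, p3, chr4:134047243-134048460, had 331 and 377 in Tprog, 302 and 399 in Ttad, 248 and 356 in Ttran and 285 and 209.8 in Tterm. OTC libraries had 385 and 388 in Tprog, 464 and 466 in Ttad, 314 and 462 in Ttran and 426 and 437 in Tterm. The difference was -0.43 ± 0.08 (SE; limma, BH-adjusted p = 2.3e-05). The Dusp5 libraries lay below OTC in Tprog, Ttad and Tterm and overlapped them in Ttran.

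The 3 other genes whose summed loci followed each member most closely over the 21 group means, among 6395 genes with 3 or more peaks, were Foxl1 (r = 0.987), Id2 (0.983) and Neb (0.982) for Prdm1. They were Xxylt1 (0.894), Nt5c3 (0.884) and Rpap3 (0.872) for Bcl6, Smarca2 (0.904), Asb2 (0.900) and Zfc3h1 (0.876) for Zeb1, and Rgs1 (0.962), Btnl9 (0.940) and Capn8 (0.938) for Zeb2. For Zfp683 they were Crybg2 (0.861), Pdcd1 (0.787) and Gm42226 (0.767). The Crybg2 sum was built without the Zfp683 entry and so shares peaks with the Zfp683 sum. Part of that r is therefore of the same peaks with themselves. Among the members, Zeb2 and Prdm1 had r = 0.778 and Zeb1 and Bcl6 r = 0.740, while Zeb2 had r = -0.794 with Bcl6 and -0.745 with Zeb1, and Prdm1 had -0.594 with Bcl6. These coefficients describe 21 groups that share libraries and size factors between genes, and the groups cluster by cell state.

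In 3 lists of other genes of these pathways, called peaks were counted. Stem-like genes that Blimp-1 or ZEB2 oppose (13 genes, 148 peaks, among them Tcf7, Lef1, Bach2 and Il7r) had 62 peaks higher and 11 lower in aged Tprog than Tterm and 86 and 6 in young, with medians of 0.53 and 0.74 beside 0.01 over all peaks at both ages. Of all peaks, 8.88% were higher and 11.2% lower in aged and 13.9% and 12.6% in young Tprog. Effector, residency and exhaustion genes (17 genes, 156 peaks, among them Tbx21, Gzmb and Tox) had 14 higher and 46 lower in aged and 20 and 46 in young Tprog, with medians of -0.17 and -0.09. Corepressors used by the members (12 genes, 91 peaks, among them Ctbp1, Hdac1 and Ncor1) had 7 higher and 21 lower in aged and 13 and 22 in young Tprog, with medians of -0.09 and -0.07. In Ttad against Tterm the stem-like list had 32 peaks higher and 5 lower, the effector list 3 and 21 and the corepressors 3 and 10, beside 3.02% and 4.26% of all peaks. With the Zfp219 guide in aged hosts 12 stem-like peaks were higher and 44 lower, 20 and 23 effector peaks, and 10 and 19 corepressor peaks, beside 12.1% and 13.7% of all peaks. With the Dusp5 guide the counts were 3 and 26, 5 and 22, and 4 and 22, beside 4.35% and 7.87%, with medians of -0.08, -0.04 and -0.11, so all 3 lists had more peaks lower than higher. These lists were drawn up with earlier results of the data known, and their counts are a description.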

How the data were processed

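The signal analysed was a deposited table of normalized reads in 53868 peaks and 48 libraries. The submitters' processing notes name Bowtie2 2.2.9, SAMtools 1.3.1, Picard 2.8.0, MACS2 2.1.1, DESeq2 1.28.1 and the mm10 build, without their roles; read shifting, duplicate removal and how peaks were pooled are not given in the sources used here. Each deposited signal value was a whole number of reads times 1 factor per library (100% of values whole, within 0.001 reads). One factor per library leaves differences in composition in place, which quantile normalization was used to check.

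Peaks were given to genes by coordinates from RefSeq (GRCm38.p6; 21896 protein-coding genes). The test was limma 3.58.1 (R 4.3.3) with a trend, on log2(value + 1), fitted to all 21 groups and all peaks, with Benjamini-Hochberg (BH) adjustment over all peaks and calls at adjusted p under 0.05; log2 differences on this scale understate changes of weak peaks. Summed loci were tested alike over 15014 genes. All 58 peaks were tested, with no filter. The alternatives, 11 and the leaving out of each library, included a pseudocount of 8, a filter that removed the weakest 25%, quantile normalization, edgeR 4.0.16 on the recovered reads (TMM, or size factors from DESeq2 1.42.0), library weights and replicate blocks. The peaks named per gene were the one with the annotated start, the strongest, and the called peak (mean of at least 20) with the largest change in each of the state, Ttad, age and guide comparisons; others are marked as chosen afterwards. The members and lists were chosen with earlier results of these data known. Replicate pairs differed by more than counting noise (chi-square per degree of freedom 2.79 to 4.53, 33 pairs), so each library was counted as 1 sample. On simulated reads for Tprog against Tterm in aged OTC, with 200 peaks changed 2-fold among 53868, limma recovered 58.5% and edgeR 58%, with 7 false calls each. For that comparison in the deposited data, limma called 10806 peaks and edgeR (TMM) on the recovered reads 11511.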

Additional observations from a re-analysis of the deposited data

Results flagged for a closer look

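The effects below differed between host ages by the test of the difference itself (limma, BH-adjusted over all peaks or loci), given as aged minus young on the log2 scale. For Tprog against Tterm in OTC libraries, 2 of the 58 peaks differed, against 2.32% of all peaks: Prdm1 p1 by -0.65 and Bcl6 p2 by 0.83. Zfp683 p5 differed by -0.39, the Prdm1 locus sum by -0.28 and the Zfp683 locus sum by -0.30. The Prdm1 locus difference did not pass under quantile normalization. That of Bcl6 p2 was lost in most fits that left out a library, and that of Prdm1 p1 passed in all such fits. In the guide libraries of both ages the same difference was -0.31 ± 0.10 (limma, BH-adjusted p = 0.031) for Prdm1 p1 and 0.51 ± 0.15 (limma, BH-adjusted p = 0.02) for Bcl6 p2.

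For the Zfp219 guide against OTC, 4 of the 58 peaks differed between the ages, against 9.11% of all peaks. They were Prdm1 p8 by 0.86, Prdm1 p17 by -0.39, Zeb1 p7 by -0.84 and Zeb2 p21 by -0.37. Zfp683 p2 differed by -0.26. The Zeb2 p21 difference passed in all 28 fits that left out 1 library, and Prdm1 p8 and p17 passed in 22 and 21 of the 28.

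For the Dusp5 guide, 3 of the 58 differed, against 4% of all peaks. They were Prdm1 p5 by -0.44, Bcl6 p4 by 0.42 and Zeb2 p21 by -0.31. Outside the 58, Zfp683 p2 differed by -0.28 and Zfp683 p3 by -0.61, and the locus sums of Zeb1 and Zfp683 by -0.20 and -0.18. Prdm1 p5 and Zfp683 p3 passed in all 28 fits that left out 1 library, Bcl6 p4 in 22 and Zeb2 p21 in 13.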

How the results depend on the processing

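With gene-body peaks alone (30 of 58) the called member peaks were 9 and 12 for Tprog against Tterm in aged and young OTC libraries, 8 and 11 for Ttran against Tprog, 3 for Ttran against Tterm in young hosts, 5, 5 and 4 for Ttad against Tprog, Ttran and Tterm, 19 in the guide libraries, 13 for age, 8 and 0 for the Zfp219 guide in aged and young hosts, and 1 for each of the 3 differences between ages; fewer peaks were counted there, so these counts cannot be set against those over 58. Ttran against Tterm in aged hosts, 1 call, gave 0 under quantile normalization, library weights or the compared groups alone and 2 with the Zfp683 entry admitted; in young hosts, 5 calls, it gave 8 under weights and 8 under the compared groups alone. Quantile normalization gave 6 for Ttad against Tprog (10), 1 for Zfp219 in young hosts (4) and 0 for Dusp5 in young hosts (2). Ttad against Ttran (8) gave 4 under weights and 4 alone, Ttad against Tterm (8) gave 4 alone, and the age difference of the Dusp5 effect (3) gave 5 with Zfp683. For these the cause was not tested.

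Leaving out 1 library gave, for Tprog against Tterm, 19 to 23 calls in aged, 21 to 24 in young and 38 to 41 in guide libraries; for Ttran against Tprog 14 to 17 and 20 to 23; for Ttran against Tterm 0 to 1 and 1 to 3; for Ttad 6 to 7 against Tprog, 4 to 7 against Ttran and 4 to 8 against Tterm; for age 20 to 25; for Zfp219 12 to 16 and 1 to 5; for Dusp5 8 to 14 and 0 to 3; and for the 3 differences between ages 1 to 2, 2 to 5 and 1 to 4.

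Values that reversed were these: Zeb2 p17 between Tprog and Tterm in aged OTC (-0.09) was 0.03 without aged OTC Tprog replicate 1 and 0.11 without aged OTC Tterm replicate 1, and over its left-out libraries lay between -0.28 and 0.11; the Prdm1 locus with Dusp5 in aged hosts (-0.09) was 0.015 under quantile normalization; the Zeb2 locus by age (0.15) was -0.18 over gene-body peaks. Libraries of the same age, guide and replicate number in different states had nearly uncorrelated deviations from their group means (-0.017 to 0.021 over 57 pairs). Between groups of 2 libraries, replicates 1 and 2 give the same value, so these pairs are not all separate. Whether a replicate number marks the same mice was not tested. With a replicate block, all 46 locus results and 42 of 43 named-peak results kept their call. There Zeb1 p1 in young Tprog against Tterm stayed at 0.21 (limma, BH-adjusted p = 0.065). Under quantile normalization 35 of 46 locus results stayed the same, 10 were weaker and 1 reversed. Of the 43 named-peak results, 35 stayed the same, 7 were weaker and 1 stronger. With gene-body peaks alone, 34 locus results stayed the same, 11 were weaker and 1 reversed. Depth limits the weakest members: Zeb1 p8 and p9 had means of 4.38 and 4.06 normalized reads.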
